A study of Mus musculus with 16 samples.

Results

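ER+ luminal cells, the hormone-sensing cells of the mammary epithelium, were compared between ducts and terminal end buds (TEBs) of the pubertal mouse mammary gland. Of 1419 deposited cells, 1317 passed the limits on spike-in share, molecules and genes, and 975 of these came from ducts or TEBs. Members were chosen by measured expression: a cell was taken as ER+ luminal when its mean z score over Krt18, Esr1, Pgr, Prlr, Cited1 and Foxa1 was the highest of 6 marker scores, the others standing for basal, ER- luminal, fibroblast, myeloid and endothelial cells. This gave 398 cells, 210 from 6 duct fragments and 188 from 6 TEB fragments, with 22 to 43 cells in a fragment. The members nearest the boundary led the next class by 0.00295 to 0.0439 z units (the closest and the fifth closest), and the nearest cells outside had a margin of -0.0204 to -0.0873.

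Single fragments of nipple, duct and TEB were dissected from mammary glands of C57BL/6 mice 5 weeks old, and sorted single cells were profiled on plates with 3' SMART-seq, unique molecular identifiers (UMIs) and spike-in RNA. By the study's account the donors of all these fragments were Krt14-Cre/Rosa26-mTmG mice, in which Cre turns membrane red fluorescence to green in the keratin 14 lineage; the labels give only the strain. Ducts are the tubes already laid down, and TEBs are the bulbous growing tips at the front of the pubertal tree. Every fragment belonged to 1 of these locations and none received a treatment. The labels do not name the mouse of a fragment, so fragments may share one, and p-values measure the spread between fragments.

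ER+ luminal cells carry the estrogen and progesterone receptors and the prolactin receptor. They mostly do not divide in response to estrogen themselves but release paracrine signals such as amphiregulin, Wnt4 and RANKL, which act on neighbouring cells. In puberty ducts elongate at TEBs, where body cells next to the lumen give rise to the luminal layers of the later duct.

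The label was checked against markers. Pooled over duct and TEB cells, Esr1 reached 37.5 CPM (UMIs of the gene scaled to the UMIs of all genes) in these cells against 7.79 in ER- luminal and 1.24 in basal cells, and Prlr 879 against 100 and 16.6, both as the rule requires. Of 12 markers that the rule did not use, 10 were highest here among the 3 epithelial classes, with Areg at 2199 against 264 and 82.5, Prom1 at 107 against 18.4 and 5.88, and Spdef at 17.9 against 1.48 and 0.464. Krt8 and Epcam were higher in ER- luminal cells, at 6992 against 5837 and 2741 against 2002 CPM. Low levels of other classes' rule genes follow from the choice of cells and are given as a description. No member held 10 or more Krt5 UMIs. The endothelial genes Pecam1 and Kdr were at 0, Cdh5 had 3 UMIs and Emcn 1.

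The median ER+ luminal cell held 33224.5 UMIs in duct and 41756.5 in TEB, and the medians of single fragments overlapped. The summed ER+ luminal cells of a fragment held 732891 to 2236521 UMIs, and the median cell 23530 to 50360 in duct and 23136 to 53737 in TEB fragments. The same 95 well barcodes were used for all fragments. RNA reaching a well from other wells, estimated from fibroblast and myeloid genes, made up 3.93% to 16.4% of the UMIs in duct fragments and 2.07% to 14.7% in TEB fragments, with the highest shares in ducts 51, 31 and 32 and in TEB 43. Duct fragments 61 and 62 stood apart from the other ducts. Over 3126 genes their deviations from the duct mean correlated with each other (r = 0.255). These deviations ran against those of ducts 31, 32, 51 and 52 (r = -0.439 to -0.318). Results are therefore given without ducts 61 and 62 where that matters. TEB fragments 42 and 43 also ran against the other TEBs (r = -0.356 to -0.205), which had r = -0.196 to -0.07 among themselves. The r between TEBs 42 and 43 was -0.0155. Deviations from a shared mean lean to negative r by construction, so a negative r alone does not set fragments apart. A fit without TEBs 42 and 43 as a pair was not run.

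The 6 genes of the rule are given as a description, with no test. Esr1, the estrogen receptor, had a lowest, median and highest level of 25.9, 38.6 and 46.5 CPM in duct fragments and 24.8, 41.4 and 53.0 in TEB fragments. Pgr, the progesterone receptor, had 84.7, 102 and 160 CPM in duct and 109, 133 and 140 in TEB. Prlr ran from 785 to 1079 CPM in duct and from 700 to 1153 in TEB. Foxa1, a pioneer factor for the estrogen receptor, ran from 90.5 to 185 and from 115 to 160 CPM, and Cited1, a coactivator of it, from 1356 to 2735 and from 1461 to 2121. For each of them the duct and TEB fragments overlapped.

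Of 8033 genes tested, 229 (2.85%) differed between locations at an adjusted p under 0.05 (edgeR's quasi-likelihood test on the summed UMIs of each fragment, Benjamini-Hochberg). Of these, 143 (1.78% of the genes tested) were higher in duct and 86 (1.07%) higher in TEB, and 58 and 39 of them differed at least 2-fold. Duct and TEB fragments did not overlap at all for 76 of the genes higher in duct and 44 of those higher in TEB, and over all genes tested such separation occurred for 166 (2.07%), 105 higher in duct (1.31%) and 61 higher in TEB (0.759%). Without ducts 61 and 62, 282 genes were called, 138 higher in duct and 144 higher in TEB, of which 163 were among the 229; the share of calls higher in duct fell from 62.4% to 48.9%. Among fragments numbered 3, the only number series with both locations, 150 were called and 87 were among the 229.

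**Figure D1:**
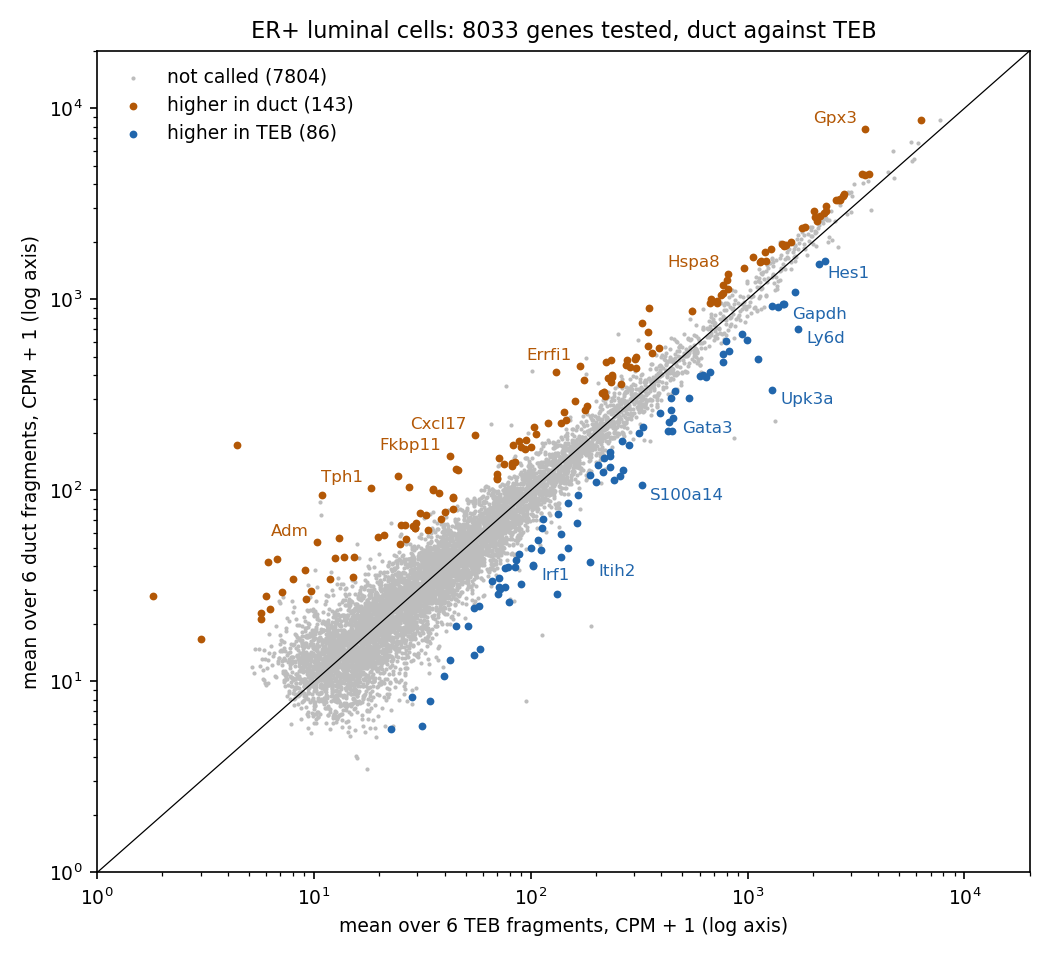
Mean level of each of 8033 genes over 6 TEB fragments (x, CPM + 1, log axis) and 6 duct fragments (y, CPM + 1, log axis) in ER+ luminal cells, with the line of equal levels. The 143 genes called higher in duct (orange) lie above the line and the 86 called higher in TEB (blue) below it; Gpx3 is the most abundant of the labelled genes.

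The gene with the smallest p among those higher in duct was Cxcl17. Cxcl17 (chr7:25400053-25412886, mm10), a mucosal chemokine, had a lowest, median and highest level of 156, 188 and 262 CPM in duct fragments and 33.1, 52.9 and 79.4 in TEB fragments. All ducts lay above all TEBs, a 3.59-fold difference (log2 1.85 ± 0.20 SE, adjusted p = 2.47e-06). Gpx3 (chr11:54902854-54910387), a secreted glutathione peroxidase, was among the most abundant transcripts of these cells, with 6169, 7880 and 9270 CPM in duct and 2701, 3280 and 4692 in TEB. It also separated the locations completely (2.23-fold, log2 1.16 ± 0.14, adjusted p = 0.000209).

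Among enzymes, Phgdh (chr3:98313171-98339969), the first enzyme of serine synthesis, had 227, 411 and 652 CPM in duct and 108, 120 and 195 in TEB (log2 1.69 ± 0.21, adjusted p = 6.09e-05). Tph1 (chr7:46644641-46672537), the rate-limiting enzyme of serotonin synthesis outside the brain, had 72.8, 105 and 122 CPM in duct and 5.73, 10.6 and 36.1 in TEB (log2 2.47 ± 0.38, adjusted p = 0.000443). Degs1, which makes ceramide from dihydroceramide, had 29.4, 59.4 and 80.9 CPM against 6.52, 12.1 and 16.6 (log2 2.21 ± 0.34, adjusted p = 0.000271). None of the 3 overlapped between locations.

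Fkbp11, a peptidyl-prolyl isomerase of the endoplasmic reticulum, had 126, 128 and 207 CPM in duct and 26.5, 39.1 and 57.8 in TEB (log2 1.85 ± 0.23, adjusted p = 1.3e-05). Errfi1 (chr4:150853796-150868889), a feedback inhibitor of the EGF receptor family, had 354, 427 and 596 CPM in duct and 105, 169 and 241 in TEB (log2 1.41 ± 0.18, adjusted p = 2.48e-05).

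Further genes that led the calls higher in duct and did not overlap were the transcription factor Ets2 (1.74-fold), the chaperone Hspa8 (1.68-fold), the peroxisomal carrier Slc25a17 (2.16-fold), the ESCRT-I subunit Vps37b (1.93-fold), the elongation factor subunit Eef1g (1.56-fold), the snoRNA host Gas5 (1.51-fold) and 1600029D21Rik (2.30-fold). A row named Mir703 was among them, but a 3' count on that row is not a measure of the mature miRNA and no value is given.

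Itih2 (chr2:10094591-10130683), a hyaluronan-binding inter-alpha-trypsin inhibitor chain, had the smallest p of the genes higher in TEB. It had 21.7, 38.1 and 70.5 CPM in duct and 124, 192 and 224 in TEB fragments, with no overlap (4.49-fold, log2 -2.17 ± 0.23, adjusted p = 2.47e-06). Wnt5a (chr14:28504543-28527448), a ligand of the non-canonical Wnt pathway, had 24.5, 37.5 and 72.8 CPM in duct and 92.9, 127 and 200 in TEB (3.10-fold, log2 -1.63 ± 0.28, adjusted p = 0.00104). Gata3 (chr2:9857078-9887953), the transcription factor of luminal identity, had 119, 267 and 323 CPM in duct and 325, 471 and 579 in TEB (1.91-fold, log2 -0.93 ± 0.20, adjusted p = 0.00907). Its lowest values were in ducts 61 and 62, and without them the difference was log2 -0.66 (adjusted p = 0.00778).

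Irf1 (chr11:53770014-53778374), a transcription factor of the interferon response, had 29.3, 38.5 and 54.6 CPM in duct and 61.5, 108 and 126 in TEB (2.57-fold, log2 -1.36 ± 0.23, adjusted p = 0.000981). Socs3 (chr11:117966079-117970336), a feedback inhibitor of cytokine receptors, had 33.6, 52 and 55.3 CPM in duct and 67.9, 137 and 278 in TEB (2.99-fold, log2 -1.58 ± 0.28, adjusted p = 0.00175). The ducts were tightly grouped for Socs3 and the TEBs were not. Psme2, a subunit of the proteasome activator that interferon induces, was 1.61-fold higher in TEB (adjusted p = 0.00147) without overlap.

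Others that led the calls higher in TEB and did not overlap were the microsomal glutathione transferase Mgst3 (2.09-fold), the selenoprotein Sepw1 (2.20-fold), the insulin receptor adaptor Grb14 (2.44-fold), the Golgi protein Golim4 (2.83-fold), the corepressor Aes (1.75-fold), the complex I subunit Ndufv3 (1.63-fold), Sh3bgrl3 (1.91-fold), and 3 proteins of the cell cortex, Marcks (2.19-fold), Mtss1 (2.14-fold) and the myosin light chain Myl12b (1.77-fold). Upk3a, a uroplakin picked after its values were seen, had 112, 326 and 580 CPM in duct and 784, 1356 and 1648 in TEB (3.86-fold, adjusted p = 0.0114). Ly6d, a GPI-anchored surface protein, had 453, 732 and 988 CPM in duct and 1119, 1626 and 2313 in TEB (2.44-fold, adjusted p = 0.00741).

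**Figure D2:**
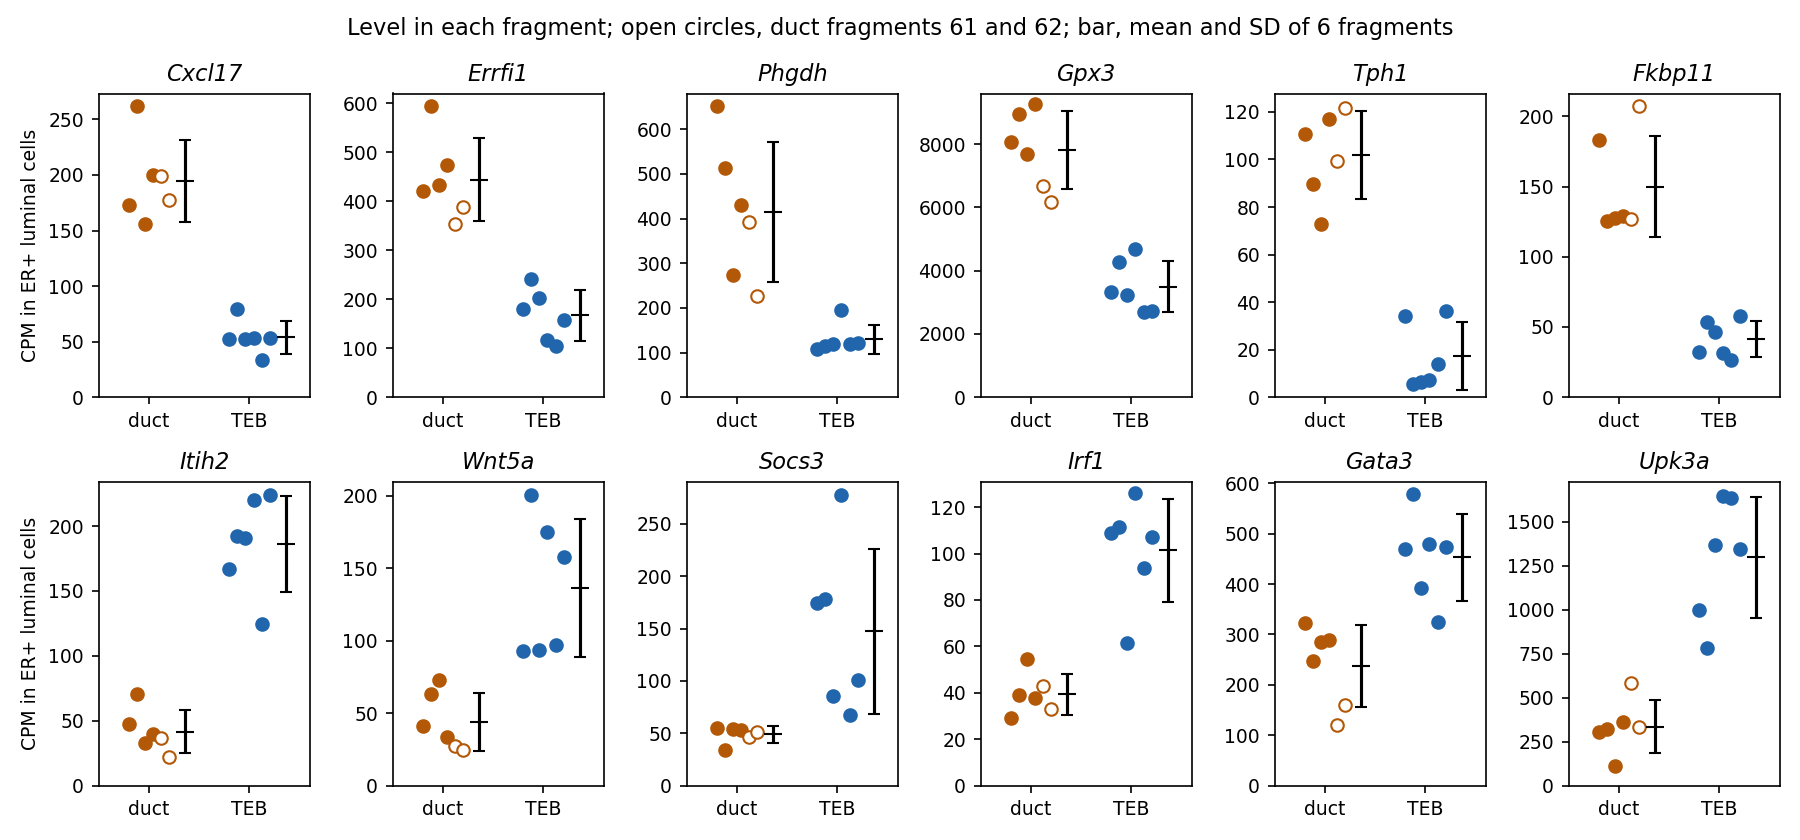
Level (y, CPM) of 12 genes in ER+ luminal cells of each of 6 duct (orange) and 6 TEB (blue) fragments, with the mean and SD; open circles mark ducts 61 and 62. Duct and TEB fragments are separate in every panel, and Gata3 is lowest among ducts in 61 and 62.

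Shares of cells with a UMI, after every cell was thinned to 5000 UMIs, were read from the same counts for genes picked by their values. Itih2 was found in 13.3% of duct and 43.6% of TEB cells, and in basal cells, which serve as background, in 1.63% and 1.30%. Its share ran from 5.71% to 19.5% over duct fragments and from 27.3% to 56.8% over TEB fragments. Cxcl17 was found in 39.5% of duct and 18.1% of TEB cells, against 4.07% of basal cells in duct and 0 of 77 in TEB, which allows a share of cells with a UMI of up to 3.90% at this depth. Upk3a was found in 34.3% and 59.6%, against 4.88% and 11.7% of basal cells. Tph1 was found in 14.3% of duct and 4.79% of TEB cells. Its share ran from 8.11% to 19.2% over duct fragments and from 0 to 10.8% over TEB fragments, which overlapped. Without thinning, Itih2 was in 39.5% of duct and 71.8% of TEB cells, at median depths of 33224.5 and 41756.5 UMIs.

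Promoters of Irf1, Socs3, Psmb8, Psmb9, Psme1 and Psme2 were searched after the values were seen. Those of Psmb9, Psme1 and Psme2 gave no match to the letters below. Those of Irf1, Socs3 and Psmb8 are shown because they hold TTCNNNGAA, whose fixed letters read alike on both strands and are the core letters of a STAT factor site, and these genes rose in TEB. The windows are on the strand of the gene (RefSeq, GRCm38.p6), with the match in capitals and 10 flanking bases on each side.
Irf1, chr11:53769914-53769942, plus strand: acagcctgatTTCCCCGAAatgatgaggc
Socs3, chr11:117969502-117969530, minus strand: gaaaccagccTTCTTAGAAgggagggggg
Psmb8, chr17:34198088-34198116, plus strand: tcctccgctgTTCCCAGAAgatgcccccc
The first base of the match lay 90 bases before the gene start for Irf1 and 97 for Psmb8. For Socs3 it lay 154 bases before the transcript start in the RefSeq promoter table, which is inside the gene span given above. In windows from 250 bases before to 50 after the transcript start, 3 of 61 genes higher in TEB held the letters (4.92%), against 498 of 6078 genes tested (8.19%) and 8.30% of all promoters, so genes higher in TEB held them in a smaller share; this was not tested. A match is a description of letters and not of a bound site.

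Lists of genes by role were then read against all genes tested, of which 1.78% were called higher in duct and 1.07% in TEB. Among 17 hormone receptors and lineage factors tested, 1 was called, Gata3. The list holds neither Prlr nor Cited1, which belong to the rule. The median difference of the list was log2 0.36, against -0.01 for all genes tested. Tbx3, a factor of the hormone-sensing lineage, had a difference of log2 0.37 ± 0.27 (adjusted p = 0.616).

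Paracrine ligands moved both ways. Of 14 tested, 2 were higher in duct (Vegfa and Cxcl14) and 1 in TEB (Wnt5a). Areg, the EGF receptor ligand that carries the estrogen signal, had 2365, 2441 and 2795 CPM in duct and 1577, 2015 and 2705 in TEB, and the locations overlapped (log2 0.27 ± 0.10, adjusted p = 0.217). Wnt4, the progesterone-induced ligand, was low in both, at 8.01 to 59.2 CPM in duct and 24.3 to 50.7 in TEB (log2 -0.26 ± 0.38, adjusted p = 0.848). Wnt7b gave log2 -0.53 ± 0.21 (adjusted p = 0.235) and Hbegf log2 0.96 ± 0.29 (adjusted p = 0.08), and neither passed edgeR's test; DESeq2 called Hbegf (adjusted p = 0.0372). Vegfa, the angiogenic factor, had 34.3, 60.3 and 104 CPM in duct and 8.59, 23.8 and 45.0 in TEB (log2 1.33, adjusted p = 0.0327), but lost the call in 6 of 12 fits that each left out 1 fragment (adjusted p 0.0674 to 0.114). Cxcl14 lost it without duct 51 (adjusted p = 0.0749), and its 265 UMIs in duct were fewer than the 442 that RNA from other wells would give.

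Of 22 estrogen-response genes tested, 5 were higher in duct and 1 in TEB, with a median of log2 0.21. Slc7a2, a cationic amino acid transporter, had 46.2, 140 and 179 CPM in duct and 28.3, 44.1 and 60.1 in TEB (2.95-fold, adjusted p = 0.00109), with only duct 62 inside the TEB range. Tiparp, an ADP-ribosyltransferase, had 49.2, 58.1 and 105 CPM against 11.6, 18.2 and 54.4 (2.79-fold, adjusted p = 0.0105). Of its UMIs, 149 of 479 in duct and 81.8 of 186 in TEB are the numbers expected from other wells. Its call was lost in the fragments numbered 3 (adjusted p = 0.0634) and under a block on the first digit (adjusted p = 0.0507). The lysosomal protease Ctsd was 1.55-fold higher in duct (adjusted p = 0.0152), a call lost without ducts 61 and 62 (adjusted p = 0.0845). Wfdc2 was 2298 to 2797 CPM in duct and 1815 to 2402 in TEB, and its call was lost without ducts 61 and 62 (adjusted p = 0.0749) and in 10 of 12 fits with 1 fragment left out. Igfbp5, with a median of 18.6 CPM in duct and 4.31 in TEB, reached 84.3 in duct 51, and 148 of its 185 duct UMIs are the number expected from other wells. Without duct 51 its adjusted p was 0.265. Rab31 was higher in TEB (log2 -0.98, adjusted p = 0.0360), lost in 8 of 12 such fits. Without ducts 61 and 62, 3 of 24 list genes tested were higher in duct and 1 in TEB.

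Of 13 progesterone and prolactin response genes tested, Socs3 and Irf1 were higher in TEB, as above, and Tsc22d3, a glucocorticoid-induced leucine zipper protein, was higher in duct. Tsc22d3 had 37.7, 68.2 and 76.7 CPM in duct and 14.9, 28.5 and 35.9 in TEB (2.23-fold, adjusted p = 0.0165), with no overlap, and an adjusted p of 0.0575 without ducts 61 and 62. Cish and Socs2, feedback inhibitors induced by prolactin through STAT5, gave log2 1.09 ± 0.42 (adjusted p = 0.206) and 0.54 ± 0.27 (adjusted p = 0.394), opposite in sign to Socs3 and not called.

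Antigen presentation and interferon genes were called in one direction. Of 24 tested, 4 were higher in TEB (Irf1, Psmb8, Psmb9 and Ly6a) and none in duct, where the unadjusted p was under 0.05 for 1 gene and DESeq2 also called 0; the list median was log2 -0.10. Psmb8, an immunoproteasome subunit, had 140, 272 and 360 CPM in duct and 352, 450 and 497 in TEB (log2 -0.75, adjusted p = 0.0261), and Psmb9 differed by log2 -0.70 (adjusted p = 0.0466). Both calls were lost in some fits with 1 fragment left out, 6 of 12 for Psmb8 and 10 of 12 for Psmb9. Without ducts 61 and 62, Psmb8 differed by log2 -1.05 (adjusted p = 0.000505). Ly6a, the Sca-1 antigen of ER+ luminal cells, had 816, 942 and 1069 CPM in duct and 989, 1435 and 2061 in TEB (1.55-fold, adjusted p = 0.0154), and its adjusted p was 0.0503 without ducts 61 and 62 and 0.388 in the fragments numbered 3.

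The S100 proteins, annexins and galectins had 4 of 19 tested members higher in TEB and none in duct, where the unadjusted p was under 0.05 for 1 gene and DESeq2 also called 0. S100a14 had 36.4, 113 and 170 CPM in duct and 265, 295 and 428 in TEB (3.05-fold, adjusted p = 0.00416), with no overlap. Lgals9, a galectin, had 58.5, 114 and 231 CPM in duct and 226, 246 and 333 in TEB (2.09-fold, adjusted p = 0.0175). Only duct 61 lay within the TEB range, and the call was lost without duct 31 (adjusted p = 0.0511). Anxa5 and Anxa6 were 1.42- and 1.46-fold higher in TEB. Anxa5 lost its call without duct 31, TEB 31 or TEB 34 (adjusted p 0.0532 to 0.0564) and Anxa6 in 5 of 12 such fits.

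Hes1, the Notch-induced repressor, had 1184, 1528 and 1826 CPM in duct and 1970, 2104 and 2384 in TEB (log2 -0.48 ± 0.10, adjusted p = 0.00851), with no overlap, while the receptors Notch1, Notch2 and Notch3 and the ligand Jag1 were not called. Tgfb3, a TGF-beta ligand, had 19.3, 30.4 and 56.9 CPM in duct and 0.818, 9.55 and 10.4 in TEB (log2 2.22 ± 0.48, adjusted p = 0.00907). Of 24 Wnt, Notch and TGF-beta genes tested, 1 was higher in duct and 2 in TEB. Among 15 ERBB and FGF signaling genes edgeR called Errfi1, and DESeq2 called 2.

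The hypoxia and glycolysis list had calls in both directions. Of 17 hypoxia and glycolysis genes tested, the enzymes Gapdh, Tpi1, Aldoa and Pkm were higher in TEB, and 3 genes, Adm and Vegfa among them, were higher in duct. Gapdh had 781, 902 and 1253 CPM in duct and 1169, 1393 and 1761 in TEB (1.55-fold, adjusted p = 0.00378), with the highest duct values in 61 and 62. Tpi1 had 433, 542 and 877 CPM in duct and 886, 945 and 1164 in TEB (1.61-fold, adjusted p = 0.00694). Without ducts 61 and 62 the 4 enzymes differed by log2 -0.97 to -0.63, and all 4 stayed called; with 1 fragment left out at a time, Aldoa lost its call in 7 of 12 fits and Pkm in 8. Adm, the vasodilator peptide adrenomedullin, had 24.4, 46.3 and 109 CPM in duct and 0, 10.4 and 18.6 in TEB (log2 2.42 ± 0.47, adjusted p = 0.00442).

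Of 28 glutathione and xenobiotic enzymes tested, Gpx3 was higher in duct and Mgst3, Gpx4 and Akr1b8 were higher in TEB. Akr1b8, an aldo-keto reductase, had 27.3, 33.5 and 60.1 CPM in duct and 63.7, 87.5 and 173 in TEB (2.59-fold, adjusted p = 0.00575). Gpx4, which reduces lipid peroxides, differed by log2 -0.40, a call lost without ducts 61 and 62 (adjusted p = 0.0627) and in 6 of 12 fits with 1 fragment left out.

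Ribosomal protein genes were slightly and widely higher in duct. Of 51 cytosolic ribosomal protein genes tested, 16 were called higher in duct and none in TEB, where no gene reached an unadjusted p under 0.05 and DESeq2 also called 0. The fitted difference was above 0 for 50 of the 51, with a median of log2 0.26. Their summed level was 107499 to 131329 CPM over duct fragments and 95865 to 104085 over TEB fragments. Rpl35 differed by log2 0.51 ± 0.10 (adjusted p = 0.00523) and Rpl5 by 0.48 ± 0.10 (adjusted p = 0.0072), and reads of these genes can also come from processed pseudogenes. The number called was 11 without ducts 61 and 62 and 2 in the fragments numbered 3, while the median stayed at log2 0.21 and 0.23. Of 53 oxidative phosphorylation genes none was called (median log2 -0.01), with 3 at an unadjusted p under 0.05 and 0 called by DESeq2.

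Cell cycle genes leaned to TEB without a call. Of 27 genes of DNA replication, 22 had a fitted difference towards TEB (median log2 -0.51), and of 31 genes of G2 and mitosis 28 did (median log2 -0.81). The edgeR test called 0 in both lists, and so did DESeq2, with an unadjusted p under 0.05 for 7 and 3 genes. The summed G2 and mitosis level was 1165 to 2909 CPM in duct and 1496 to 3180 in TEB fragments, which overlapped. Mki67 ran from 0 CPM in ducts 61 and 62 to 48.9 in duct and from 11.5 to 51.7 in TEB (log2 -0.94 ± 0.85, adjusted p = 0.713). Without ducts 61 and 62 the medians were log2 -0.30 and -0.40.

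**Figure D3:**
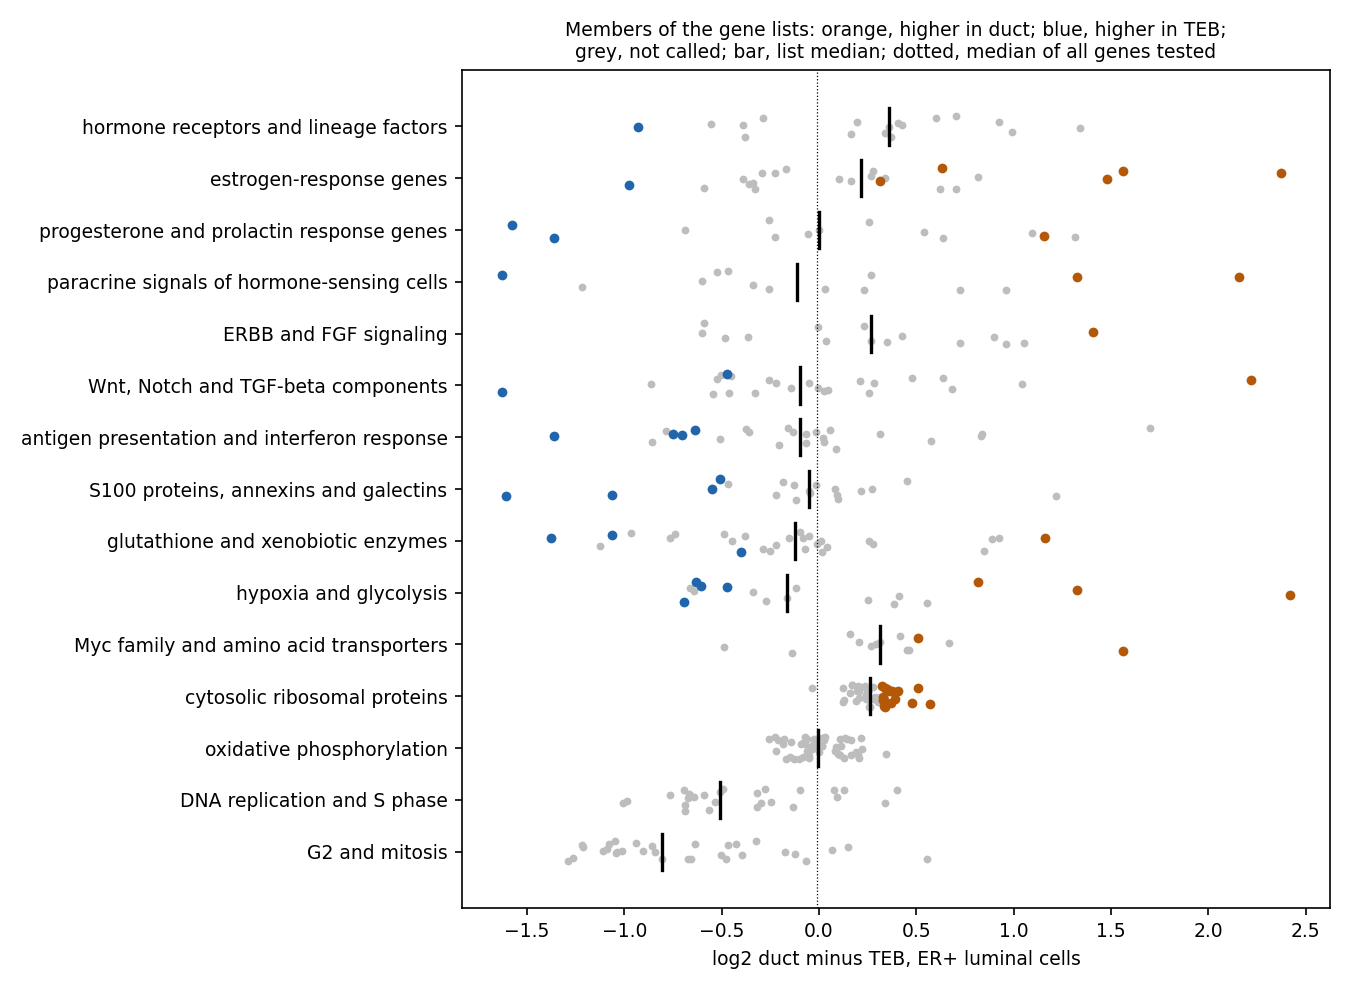
Fitted log2 difference, duct minus TEB, of each tested member of 15 gene lists in ER+ luminal cells; orange members were called higher in duct, blue higher in TEB, and bars mark list medians. The 51 ribosomal genes sit in a narrow band with a median of log2 0.26, oxidative phosphorylation centres on -0.01, and both cell cycle lists have medians under 0 with no called member.

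Of 24 immediate early and stress genes tested, 3 were higher in duct (Hspa8, Klf6 and Klf4) and none in TEB, where the unadjusted p was under 0.05 for 1 gene and DESeq2 called 0. Klf6 had 1554, 1695 and 2022 CPM in duct and 952, 1160 and 1480 in TEB (log2 0.54 ± 0.11, adjusted p = 0.00472). Klf4 lost its call in 5 of 12 fits with 1 fragment left out. Fos, Jun and Junb differed by log2 -0.28, -0.08 and -0.16 and were not called.

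A small list of immune-type genes, taken from earlier results of these data, varied strongly between fragments. Whether these genes occur in the same cells was not tested. Ido1 was 0.801 to 13.4 CPM in 4 ducts and 211 and 231 in ducts 61 and 62, against 10 to 155 in TEB (adjusted p = 0.945). Cxcl13 ran from 0 to 21.1 CPM in duct and from 6.62 to 164 in TEB (log2 -3.78, adjusted p = 0.112). Sprr1a ran from 36.7 to 394 and from 180 to 1311 (log2 -2.20, adjusted p = 0.158). Neither passed edgeR's test, but Sprr1a was called by DESeq2 (adjusted p = 0.0202) and by edgeR with cells thinned (adjusted p = 0.0444). Cxcl13 was called in the fragments numbered 3 (adjusted p = 0.00047) and not by DESeq2 (adjusted p = 0.0535).

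Basal markers leaned to duct, with genes of the rule among them as a description. All 7 tested had a fitted difference above 0; 4 of them belong to the rule, and the other 3, Cnn1, Myl9 and Tagln, were called higher in duct. The summed basal list, which includes genes of the rule, was 321 to 1245 CPM in duct and 41.5 to 261 in TEB. Its UMIs, 4102 in duct and 1119 in TEB, were fewer than the 4614 and 1369 that RNA from other wells would give, and these 3 genes were each below that number in duct. Krt14, a gene of the rule and given with no test, had 652 duct UMIs against 688 expected. Of the other lists, fibroblast, myeloid, ER- luminal, endothelial, pericyte and epidermal markers had 16 genes tested that the rule did not use and 0 called by edgeR or DESeq2, with an unadjusted p under 0.05 for 1; mast, lymphoid and adipocyte markers had none tested. With genes left out for which over 20% of UMIs were expected from other wells, 199 genes were called. Of the 29 leading genes given above, 26 had 3.65% to 17.6% of their UMIs expected from other wells in either location. The expected part was larger for Degs1 (19.2% in duct and 57.3% in TEB), Golim4 (54.3 of 226 UMIs in duct) and Sepw1 (20.8% in duct).

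The difference between locations was then compared across epithelial classes of the same fragments, with a class by location term and the fragment as a block. Tested alone, ER- luminal cells had 64 of 5425 genes called (1.18%) and basal cells 685 of 5363 (12.8%). Against ER- luminal cells, 44 of 8573 genes (0.513%) had a term past the threshold, 13 of which were among the 229. Fkbp11 had a term of log2 2.35 ± 0.45 (adjusted p = 0.00764). In ER- luminal cells it was 58.8 ± 25.0 CPM in duct (SD, n = 6) and 74.4 ± 18.2 in TEB (n = 5). Hes1 had a term of log2 -1.0 ± 0.12 (adjusted p = 2.05e-05), with ER- luminal levels of 2770 ± 553 CPM in duct and 2058 ± 444 in TEB. Anxa5 (-1.06) and S100a14 (-2.32) also had negative terms. Krt7, Lgals3 and Anxa2 had terms of log2 -1.37, -1.31 and -0.95 through ER- luminal cells, where they were higher in duct, and were not called in ER+ luminal cells (log2 -0.16, 0.27 and 0.10).

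Against basal cells, 363 of 9084 genes (4.0%) had a term past the threshold, 52 of them among the 229. The interferon genes Irf1 and Psmb8 took the opposite course in basal cells. The terms of Psmb9 (adjusted p = 0.161) and Ly6a (adjusted p = 0.525) did not pass the threshold. Irf1 was 68.4 ± 21.4 CPM in basal cells of ducts and 17.4 ± 10.3 in those of TEBs (SD, n = 6 each), the reverse of its order in ER+ luminal cells, with a term of log2 -3.49 ± 0.53 (adjusted p = 5.55e-05). Psmb8 had basal levels of 66.0 ± 11.9 and 18.9 ± 10.2 CPM (term log2 -2.63 ± 0.40), and the galectin Lgals9 of 90.5 ± 31.3 and 10.5 ± 8.93 (term log2 -4.37 ± 0.48). Phgdh ran the other way, at 91.6 ± 20.7 CPM in basal cells of ducts and 180 ± 77.7 in those of TEBs (term log2 2.45 ± 0.32, adjusted p = 5.49e-06). Errfi1 was higher in duct in basal cells too, and neither of its terms passed the threshold. The genes with the smallest p, Postn, Krt8, Anxa2, Tmsb4x and Myl6, differed in basal cells. Their differences in ER+ luminal cells were log2 -0.34 to 0.24, and none was called there with all fragments. Without ducts 61 and 62, Myl6 was called higher in TEB in ER+ luminal cells (log2 -0.42, adjusted p = 0.00778). It was also called in the fragments numbered 3 (log2 -0.49, adjusted p = 0.0461). RNA from other wells also enters the basal and ER- luminal sums, and its part in these terms was not tested.

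**Figure D4:**
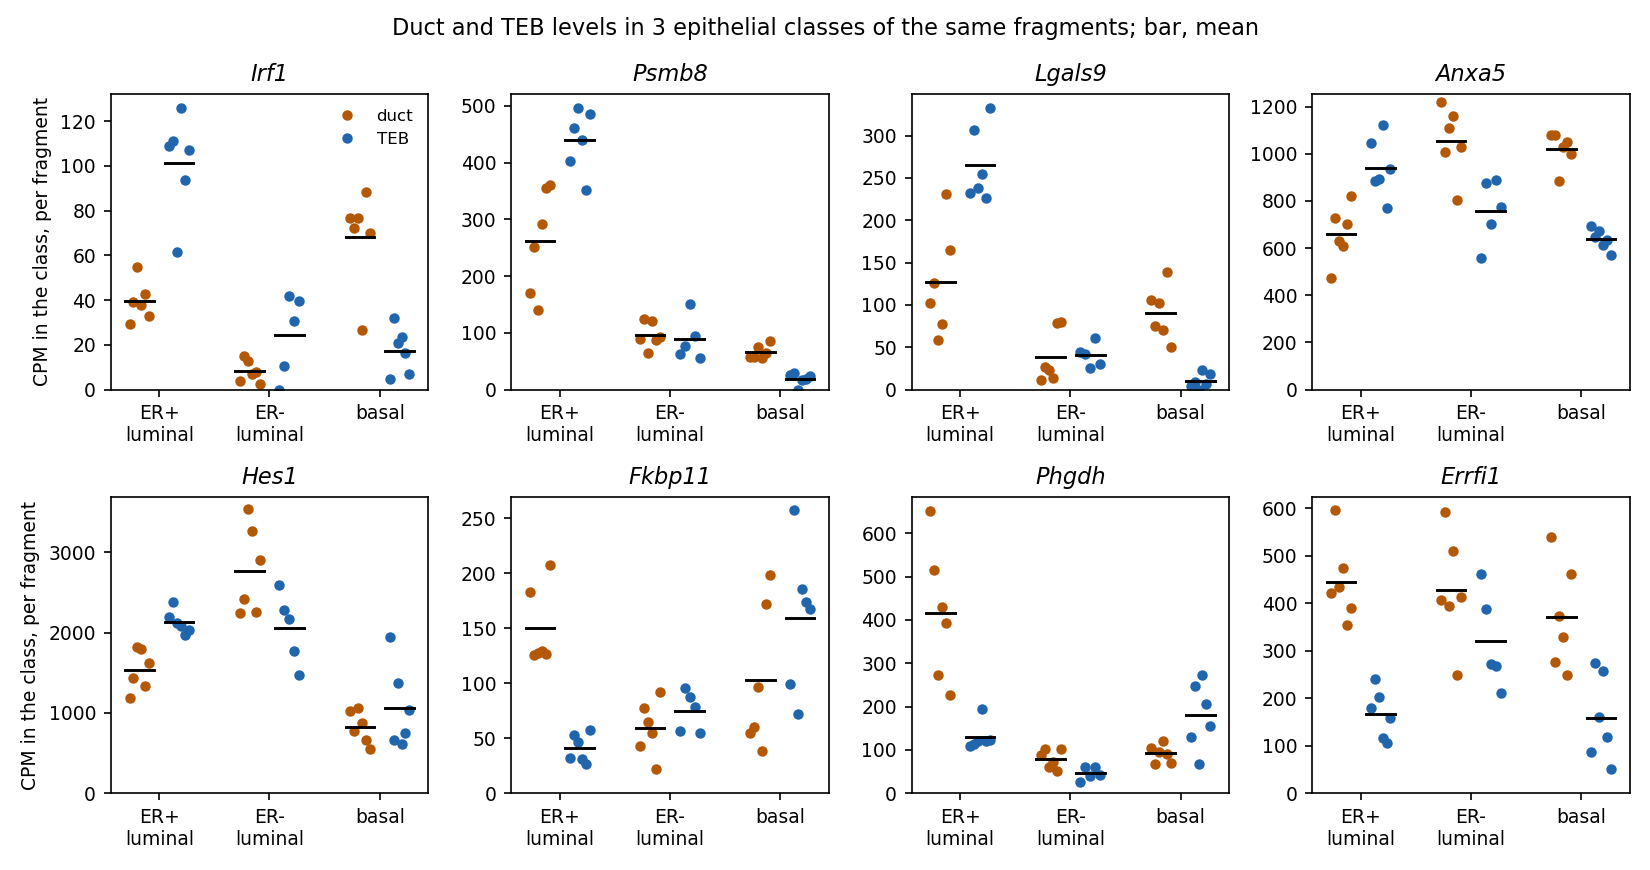
Level (y, CPM per fragment) of 8 genes in ER+ luminal, ER- luminal and basal cells of the same duct (orange) and TEB (blue) fragments, with the mean as a bar. Irf1, Psmb8 and Lgals9 are higher in TEB in ER+ luminal cells and higher in duct in basal cells; Fkbp11 and Phgdh have their higher mean in duct in ER+ luminal cells and in TEB in basal cells, and Errfi1 has its higher mean in duct in all 3 classes.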

How the data were processed

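The authors trimmed reads with Trim Galore, checked them with FastQC, extracted UMIs with UMI-tools, aligned to mm10 with STAR and assigned reads with featureCounts; the deposited table holds raw UMI counts of 17721 genes and 67 spike-ins (0.758% of UMIs) in 1419 cells. Cells with at most 5% spike-in UMIs, 5000 to 120000 UMIs and 200 to 6000 genes were kept. Scores were means of z-scaled log1p counts per 10000. No doublet caller was run.

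Raw counts of ER+ luminal cells were summed per fragment and tested with edgeR 4.0.16 (R 4.3.3; TMM, filterByExpr, robust quasi-likelihood fit) between 6 duct and 6 TEB fragments, without a block. SE is the absolute log2 difference over the root of F. CPM use TMM-scaled totals. RNA from other wells is the median share, over members, of fibroblast and myeloid marker CPM relative to the pool of the fragment. Intervals and floors cover counting error only.

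Named genes were, for each direction, the 15 called genes of smallest p whose fragments did not overlap and whose higher mean reached 50 CPM; up to 6 called members of each list; uncalled textbook ligands and receptors; the genes of the rule; and the 5 leading genes of each class term. Members and lists were chosen with earlier results of these data known. Gene positions and promoters came from RefSeq GRCm38.p6, with 122 of 125 named genes matched. Scripts were tested on simulated counts. Fragments 31 and 32 exist in both locations; deviations of the same number correlated at r = 0.0123 and 0.0942, and the numbers were not taken as pairs. Alternatives were DESeq2 1.42.0, other scaling, filters, cell limits, thinning, blocks and leaving out fragments.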

Additional observations from a re-analysis of the deposited data

Results flagged for a closer look

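Of 166 sets of 6 fragments (83 genes in 2 locations, none a gene of the rule), 10 had a lowest or highest fragment far from the rest by Dixon's ratio, and chance flags about 1 in 20. Duct 51, the fragment with the largest share of RNA from other wells (16.4%), was the highest for Igfbp5 (0.716) and Tagln (0.723). Other ducts stood out for Myl12b (52, 0.701), Tiparp (32, 0.687), Rpl5 (31, lowest, 0.716), Adm (61, 0.636) and Hbegf (62, 0.745). TEB 34 was the highest for Phgdh (0.843) and Tiparp (0.659), and TEB 43 for Myl9 (0.697).

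Of 83 named genes, 13 had a class by location term (log2) past the threshold against ER- luminal cells. The 5 of smallest p for this term were named because of it, so the count was partly set by that choice. Over all 8573 genes tested, 44 (0.513%) had such a term. The term was positive for Cxcl14 (3.46), Fkbp11 (2.35), Igfbp5 (2.33), Degs1 (2.25) and Fth1 (0.75). It was negative for S100a14 (-2.32), Krt7 (-1.37), Lgals3 (-1.31), Sepw1 (-1.12), Anxa5 (-1.06), Hes1 (-1.0), Anxa2 (-0.95) and Krt8 (-0.55). In ER+ luminal cells, Cxcl14 had 265 duct UMIs against 442 expected from other wells, and Igfbp5 had 185 against 148. For Degs1, 57.3% of the TEB UMIs were expected from other wells. The part of this RNA in the terms was not tested.

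Over all 9084 genes tested, 363 (4.0%) had a term past the threshold against basal cells. Of the 83 named genes, 33 had such a term, and the 5 of smallest p were named because of it. It was positive for the genes higher in duct Fkbp11 (2.54), Phgdh (2.45), Slc25a17 (1.48), Slc3a2 (1.02), Gas5 (0.90), Eef1g (0.77), Hspa8 (0.69) and Rpl35 (0.41). It was negative for 1600029D21Rik (-2.51), which was higher in duct in both classes. Among genes higher in TEB it was negative for Lgals9 (-4.37), Irf1 (-3.49), S100a14 (-2.74), Psmb8 (-2.63), Timp2 (-2.50), Socs3 (-2.26), Psme2 (-1.46), Gata3 (-1.28), Anxa5 (-1.25), Aldoa (-1.14), Aes (-1.07), Tpi1 (-1.07), Sepw1 (-1.04), Gapdh (-0.93), Anxa6 (-0.70) and Gpx4 (-0.58). Genes not called in ER+ luminal cells had negative terms too: Postn (-4.71), Lgals3 (-2.43), Sprr1a (-2.30), Krt7 (-2.11), Anxa2 (-1.58), Krt8 (-1.43), Myl6 (-1.21) and Tmsb4x (-1.14).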

How the results depend on the processing

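Leaving out 1 fragment at a time gave 156 to 225 called genes; of 67 called genes named with values in the text and outside the rule, 50 stayed called in all 12 such fits. The count was 229 with a 10% spike-in limit, 224 with at least 10000 UMIs, 186 with cells thinned, 231 with other size factors and 322 with DESeq2. It fell to 146 with nipple fragments in the fit, 142 with 22 cells drawn per fragment and, chosen after seeing the data, 150 with fragments numbered 3 only. A replicate block on the label number gave 128 (75 shared with the 229) and a block on its first digit 138 (93 shared); the meaning of the digits is not given. Of the 67 genes, 38 were called under the replicate block and 44 under the block on the digit, and all kept their direction wherever they were tested. Ido1, not called, changed sign under the replicate block (log2 -4.54), under the block on the digit (-4.45), in fragments numbered 3 only (-4.44) and without ducts 61 and 62 (-3.07). Terms against ER- luminal cells numbered 112 with no low-count filter and 24 to 51 with 1 fragment left out. Terms against basal cells numbered 212 with thinned cells, 166 with fragments numbered 3 only and 290 to 362 with 1 fragment left out. With 22 to 43 cells per fragment, genes of low abundance rest on few UMIs.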

Other observations

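Some groups of genes stood outside the comparisons above. Of 14 epithelial cytokine and antimicrobial genes tested, 12 had a fitted difference towards TEB (median log2 -0.65), and edgeR called 0, with an unadjusted p under 0.05 for 5 and 1 called by DESeq2. The 13 Myc family and amino acid transporter genes had a median of log2 0.32, with Slc7a2 and Slc3a2 called higher in duct. Their summed level was 2964 to 3445 CPM over duct fragments and 2406 to 2704 over TEB fragments, with no overlap; Slc3a2 lost its call without ducts 61 and 62 (adjusted p = 0.0534) and in 9 of 12 fits with 1 fragment left out.

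Of 26 luminal keratins and apical surface genes, Atp1b1 was called higher in TEB (log2 -0.64, adjusted p = 0.0474), and of 24 integrin, basement membrane and matrix enzyme genes, Timp2 (log2 -1.11, adjusted p = 0.0488), each lost in 10 of 12 fits with 1 fragment left out; Atp1b1 was also lost without ducts 61 and 62 (adjusted p = 0.107). No gene was called by edgeR among 8 CDK inhibitors and D cyclins, 25 genes of sterol and fatty acid synthesis and 3 milk protein genes, with an unadjusted p under 0.05 for 0, 3 and 0 genes and 0, 1 and 0 called by DESeq2.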
